A study of Mus musculus with 2 samples.

Results

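The cytokine genes Il4, Il13 and Il15 were followed through every cell of both libraries of a study of leukemic mouse promyelocytes. They were chosen by gene symbol, 3 of the 32285 genes in the matrices, with earlier results of these data known, and the difference between the libraries may have been part of the choice. It is therefore given as a description. Late promyelocytes transformed by PLZF/RARA, the fusion of a zinc finger protein with the retinoic acid receptor alpha, came from leukemic bone marrow and were sorted as Cd45.2+, c-Kit+, Gr1+, Cd34- and FcγR+. The vehicle group received corn oil with 10% DMSO, and the retinoic acid group received 0.8 to 1 mg of retinoic acid, both by intraperitoneal injection over 7 days. Cells of both groups carry the fusion, and there was no group without it. A cohort held 3 to 5 mice, and neither the number of mice behind a library nor their age or strain is given in the sources used here. With 1 library for each group, differences have no check by replication, and cells are not replicates.

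IL-4 and IL-13 are the sister cytokines of type 2 immunity. Their genes lie side by side, and both proteins signal through a receptor that contains the IL-4 receptor alpha chain (Il4ra) and activates STAT6. Besides T helper cells and innate lymphoid cells, basophils, mast cells and eosinophils make them, under transcription factors such as GATA1 and GATA2, and basophils answer IL-3 and IL-33 with release of IL-4. IL-15 is of another kind: it is held on the surface of the producing cell by its own receptor alpha chain (Il15ra) and presented to neighbouring T and NK cells that carry Il2rb and Il2rg.

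On GRCm38, in the GENCODE M21 annotation, Il4 (ENSMUSG00000000869) is on the minus strand of chromosome 11 from 53602982 to 53618669, and Il13 (ENSMUSG00000020383) on the same strand from 53631324 to 53634702. They are 12654 bases apart. The near end of Rad50, whose gene body carries the locus control region of these cytokines, lies 14816 bases beyond Il13. Il15 (ENSMUSG00000031712) is on the minus strand of chromosome 8 from 82331632 to 82403222. The promoters of the 2 linked genes are shown because Gata1 and Gata2 were higher in cells that held these RNAs. RefSeq on GRCm38.p6 gave 3 starts for 2 of the 3 genes. The 250 bases before each start are printed 5′ to 3′ on the minus strand, at chr11:53618666-53618915, chr11:53617339-53617588 and chr11:53634703-53634952, with capitals on matches to the GATA words AGATAA and AGATAG and also TGATAA and TGATAG.
Il4 start: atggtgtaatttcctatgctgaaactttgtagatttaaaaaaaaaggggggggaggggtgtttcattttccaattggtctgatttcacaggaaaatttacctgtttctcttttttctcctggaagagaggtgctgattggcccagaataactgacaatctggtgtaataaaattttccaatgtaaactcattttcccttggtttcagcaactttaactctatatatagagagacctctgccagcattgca
Il4 alternative start: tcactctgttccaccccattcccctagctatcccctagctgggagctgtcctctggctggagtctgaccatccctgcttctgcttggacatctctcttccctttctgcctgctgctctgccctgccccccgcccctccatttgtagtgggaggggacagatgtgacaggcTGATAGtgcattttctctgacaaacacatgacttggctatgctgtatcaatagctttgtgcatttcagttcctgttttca
Il13 start: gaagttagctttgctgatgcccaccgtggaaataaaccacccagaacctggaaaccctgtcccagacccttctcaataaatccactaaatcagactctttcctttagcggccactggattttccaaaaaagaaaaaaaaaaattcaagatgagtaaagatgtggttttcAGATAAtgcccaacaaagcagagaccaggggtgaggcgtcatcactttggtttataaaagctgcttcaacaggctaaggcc
A GATA word lay 81 to 76 bases before the Il13 start and 80 to 75 bases before the alternative Il4 start, which is inside the Il4 gene, and none lay before the first Il4 start. Of 32851 promoters of this length, 26.5% hold at least 1 such word on either strand. The NFAT core GGAAA matched 5 times before the first Il4 start and 4 times before the Il13 start, and 55.6% of promoters hold it. TATAAA matched before the Il13 start on the printed strand 29 to 24 bases upstream, overlapping a match on the other strand. Of promoters, 12.4% hold it. The STAT pattern TTCNNNGAA, held by 7.02% of promoters, was in none of the 3 windows. These matches describe letters and say nothing of binding.

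The values are UMI counts, in which each UMI marks 1 captured RNA molecule. CPM is the percent of all UMIs of the cells named, multiplied by 10000. After filtering, 5476 vehicle cells with 99107718 UMIs (median 16750 a cell) and 7140 retinoic acid cells with 110088247 UMIs (median 14604) were kept, and 11 barcodes occurred in both libraries. All intervals are 95% and cover counting error only. Of the sorted antigens, Kit stood at 19.3 CPM under vehicle and 16.7 CPM under retinoic acid. Mpo, a promyelocyte gene, stood at 311 CPM under vehicle and had 55 counts under retinoic acid. Of 6 promyelocyte markers, Mpo was the 1 at least 2-fold lower under retinoic acid, and 3 were at least 2-fold higher. Cd34, absent at the cell surface by the sort, was detected as RNA at 53.8 CPM under vehicle, with 13 counts under retinoic acid.

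All 3 cytokine genes were lower in the retinoic acid library. Il4 had 1453 counts in the vehicle library, 14.7 CPM (13.9 to 15.4), and 22 under retinoic acid, 0.200 CPM (0.125 to 0.303), a log2 ratio of -6.17 (-6.88 to -5.59) that is 71.8-fold lower. With equal weight for every cell in place of every UMI, the log2 ratio of Il4 was -5.45. Il13 had 285 counts, 2.88 CPM (2.55 to 3.23), in the vehicle library and 0 in the other. Against a floor of 3 counts in the retinoic acid library it was at least 105.5-fold lower, a log2 bound of -6.72. Il15 had 2260 counts, 22.8 CPM (21.9 to 23.8), and 245, 2.23 CPM, a log2 ratio of -3.35 (-3.55 to -3.17) that is 10.2-fold lower. Among the 10501 genes that reached 2 CPM in 1 or both libraries, 8.67% were at least 2-fold lower, 2.07% at least 8-fold and 0.733% at least 32-fold. Il4 and Il13 were past the 32-fold limit and Il15 past the 8-fold limit, and nothing is read from that, since the contrast may have chosen them. Outside the kept cells, the 276 removed retinoic acid barcodes held a single Il13 UMI, under the floor.

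The 3 genes were spread over cells in different ways. Il4 was seen in 929 of 5476 vehicle cells (17.0%, 16 to 18), of which 720 held 1 UMI and 10 held at least 10, with a highest value of 45. The 10 richest cells carried 16% of all Il4 counts. Il13 was seen in 82 cells (1.5%, 1.19 to 1.86), 38 with 1 UMI and 7 with at least 10, up to 32, and the 10 richest carried 50.9% of its counts. Il15 was seen in 1639 cells (29.9%, 28.7 to 31.2), 1175 of them with 1 UMI, and no cell held more than 6. In the retinoic acid library 15 of 7140 cells held Il4 (0.210%), with at most 4 UMIs, and 231 held Il15 (3.24%), 219 of them with 1 UMI. For Il13 the 0 of 7140 cells allow, as 3 counts of that total, a share of up to 0.0420% with a UMI. Thus Il13 was concentrated in few cells with many molecules, Il15 was thin and broad, and Il4 had both a broad single-UMI part and a few rich cells.

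The libraries kept this order at equal depth. With every cell of at least 5000 UMIs thinned to 5000, which left 5282 vehicle and 6659 retinoic acid cells, Il4 was found in 6.95% of the vehicle cells (6.28 to 7.67) but 0.0601% of those under retinoic acid. Il15 was in 11.8% and 1.19%, and Il13 in 0.985% and 0 cells. RNA released from other cells can place single UMIs in cells that do not express a gene. In the 71 vehicle cells of the maturing neutrophil-like cluster described below, taken as cells that should lack Il4 and Il13, 7.04% held Il4 and none held Il13, at a median of 9088 UMIs against 16750 over the library. Their Il4 level was 8.45 CPM (3.10 to 18.4), so vehicle cells with 1 Il4 UMI cannot each be taken as producers. Il15 was in 11.3% of these 71 cells, at 16.9 CPM (8.73 to 29.5), and the part of released RNA in single Il15 UMIs was not tested.

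**Figure D1:**
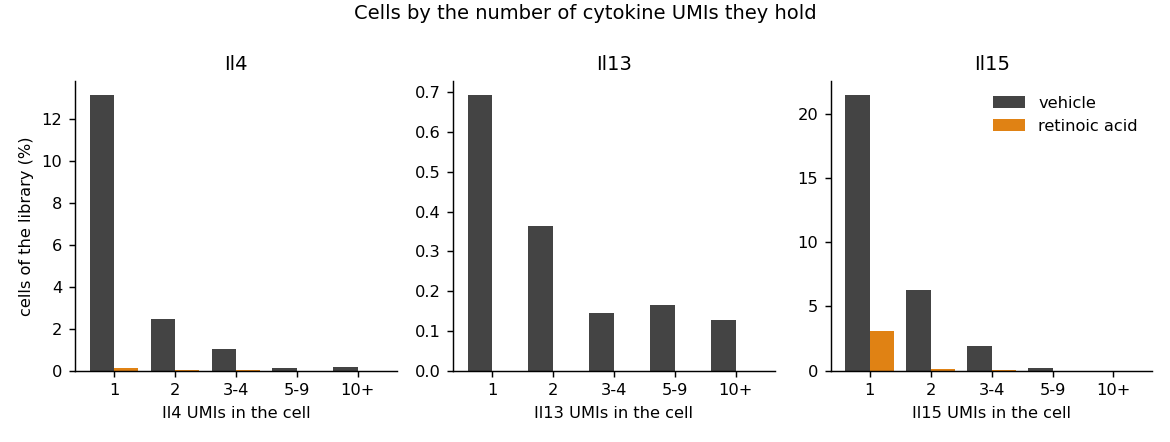
Cells by the number of UMIs of Il4, Il13 and Il15 they hold (horizontal axis, classes of UMIs), as a percent of the kept cells of each library (vertical axis, from 0, a scale of its own in each panel), for vehicle (grey) and retinoic acid (orange). Il13 bars are seen for the vehicle library alone, which had 82 positive cells against 0, and most Il15 positive cells held 1 UMI.

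Cells were clustered within each library with the 3 genes left out, and Il13 fell almost wholly in 1 vehicle cluster. Cluster 3, with 571 cells (median 10995 UMIs), held 275 of the 285 Il13 counts (96.5%), at 42.6 CPM, in 73 of its cells (12.8%). It also had the highest Il4 level, 96.2 CPM (88.8 to 104), with Il4 in 42.2% of its cells and 42.8% of all Il4 counts. Cd200r3, Gzmb and Cma1 among its 10 leading genes met the rule for the name mast cell and basophil-like, but Prg2 and Prg3, eosinophil granule genes, led it too, and Fcer1a, the alpha chain of the IgE receptor, had 0 counts in both libraries. The name did not last. At a finer resolution of 1.0 an unnamed cluster of 114 cells, led by Slc6a4, Ccdc80, Cd200r3 and Cd226, held 76.5% of the Il13 counts at 198 CPM, with Il4 at 336 CPM, beside an eosinophil-like cluster of 496 cells with Il13 at 9.18 CPM and Il4 at 45.1 CPM. With 15 principal components the cluster with the highest Il13 level had 608 cells, no name and 95.4% of the counts. The text therefore says cluster 3 and gives it no cell type.

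Outside cluster 3 the Il4 level was 17.4 CPM (15.9 to 19.0) in cluster 2, with 1981 cells led by Lair1, Snhg11 and Hspb1. It was 5.13 CPM in cluster 0, led by mitotic genes such as Nusap1 and Ube2c, and 6.12 CPM in cluster 1, led by replication genes such as Cdc6 and Mcm4. In CPM all 3 levels lay within the counting interval of the 71 maturing neutrophil-like cells of cluster 4. By share of cells, Il4 was in 20.3% (18.6 to 22.2) of cluster 2, 10.2% of cluster 0 and 8.94% of cluster 1. In cluster 4 it was in 7.04% (2.33 to 15.7). Median depth was 13556, 23686.5 and 17321 UMIs in clusters 2, 0 and 1 and 9088 in cluster 4. The part of released RNA in these levels was not tested. Il13 had 8 counts in cluster 0, 1 each in clusters 1 and 2, and 0 in cluster 4. Il15 was highest in cluster 2 at 38.7 CPM (36.4 to 41.1), near cluster 3 at 33.6 CPM (29.3 to 38.4), whose intervals overlap. It was 15 CPM in cluster 0, 14.9 CPM in cluster 1 and 16.9 CPM (8.73 to 29.5) in cluster 4. At resolution 1.0 the 114 cells richest in Il13 were the poorest in Il15, with 3 counts or 2.72 CPM (0.561 to 7.95), while the 496 eosinophil-like cells stood at 43.5 CPM (38.4 to 49.2). A further eosinophil-like cluster of 124 cells had Il15 at 13.1 CPM (9.20 to 18.0) and Il13 at 2.82 CPM.

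**Figure D2:**
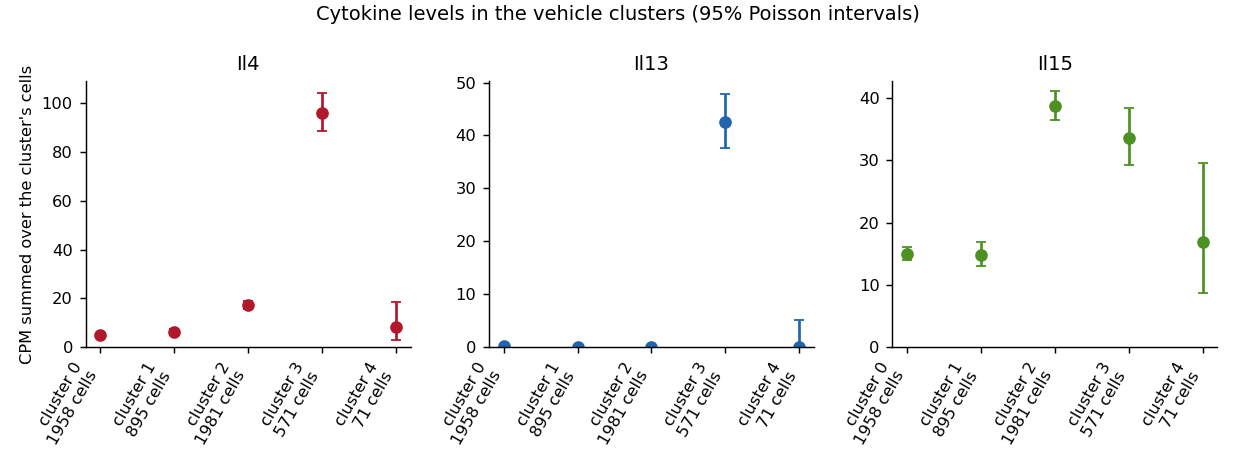
CPM of Il4, Il13 and Il15 (vertical axes, each from 0) in the 5 vehicle clusters (horizontal axis), with 95% Poisson intervals for counting error. Il4 and Il13 were highest in the 571 cells of cluster 3, and Il15 in clusters 2 and 3.

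The cells with Il13 RNA differed from the other vehicle cells in a large part of their genes. In cells at 5000 UMIs, 75 positive cells were set against 5207 negative ones. Of 5724 genes that reached 20 CPM in 1 or both sets, 584 (10.2%) were at least 2-fold higher and 913 (16%) at least 2-fold lower. The positive set is small: its UMIs sum to 375000, so that 8 counts make 21.3 CPM. The 10 highest ratios were those of Asb2, Phlda1, Slc6a4, Cd226, C3ar1, Osm, Mboat1, Cd200r3, Egr1 and Ccl6. Ccl6, a CC chemokine, had 4525 CPM in positive and 136 CPM in negative cells, a log2 ratio of 5.06 (4.97 to 5.14), and was in 72.0% of the positive cells. Phlda1 had 155 and 1.57 CPM, a log2 ratio of 6.61. Slc6a4, the serotonin transporter, had 69.3 and 1.31 CPM, and Cd200r3, an activating receptor of basophils and mast cells, had 50.7 and 1.46 CPM. Asb2 rested on 8 counts, 62.5% of them in 1 cell. At the low end were Camp, Timm10, Dph5 and Ndufaf2 with 0 counts in positive cells, and S100a9 at a log2 ratio of -4.45. Against the floor of 3 counts Camp, a secondary granule gene, had a log2 bound of -5.16.

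Marker lists of several blood cell types held genes that were higher in these cells. Of 13 mast cell and basophil markers with at least 10 counts, 11 were at least 2-fold higher and 0 lower (median log2 ratio 2.95), where 17.1% of all 12221 genes with that many counts were higher, 17.6% were lower and the median was -0.06. In so small a set the 0.5 counts added to a gene at 0 can make it look higher, as for 487 of the genes counted so. With genes at 0 set to their bound against 3 counts, or left out where that gives no direction, a rule added after the data were seen, 15.9% of 10137 genes were higher and 14.1% lower, and the 13 markers kept their counts. Hdc, which makes histamine, had 1050.7 against 59.0 CPM (log2 4.16), and Mcpt8, the basophil protease, had a log2 ratio of 3.2. Cpa3, the mast cell carboxypeptidase, differed less, at 0.73. The markers' summed level was 12376 against 3385 CPM, of which the granule proteoglycan gene Srgn made 6645 and 2162 CPM. Prss34, Fcer1a, Mcpt4, Tpsab1 and Tpsb2 were at 0 in the cells with both Il13 and Il4, and all of these but Prss34 were at 0 in the whole vehicle library. All 5 eosinophil markers counted were higher, among them Epx at 3.75 and Prg2 at 2.89. All 6 promyelocyte markers were lower (median -2.54), among them Mpo at -2.60. Of 11 maturing neutrophil markers 9 were lower, or 6 of 10 with genes at 0 at their bound, and the 1 that was higher was Ly6g, at 4.12. Ly6g is part of the Gr1 antigen used in the sort. Markers of further cell types were also higher in places. Of the T cell, NK cell and innate lymphoid markers 3 of 6 were higher and 0 lower (median 0.98), or 2 of 5 with genes at 0 at their bound (median 0.37), while the markers' sum was 1928 against 1887 CPM. In the 53 cells that held both Il13 and Il4, Cd3d, Cd3g, Cd28, Rora and Gata3 of this list had 0 counts, and Gata3 was rare in the whole library. Cd3e, Trbc1, Trbc2, Cd4, Cd8a and Ncr1 had 0 in all 5476 vehicle cells, so nothing is read from them. Trac, Nkg7, Klrb1c, Il7r, Thy1 and Lck were detected in the 53 cells. Of monocyte, macrophage and dendritic markers 4 of 6 were higher, or 3 of 4 by the bound, among them Adgre1 at 1.34. Of B cell markers 2 of 3 were higher, or 1 of 2 by the bound, and of erythroid markers 2 of 2, with Hba-a1 at 15 counts in positive cells. The part of other cells or their RNA in these values was not tested.

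Among regulators of type 2 cytokine genes, 8 of 23 were at least 2-fold higher in Il13 positive cells and 2 lower. Over all 12221 genes with at least 10 counts, 17.1% were higher and 17.6% lower, or 15.9% and 14.1% with genes at 0 at their bound. The list counts of this paragraph stand beside these shares. Gata2 stood at 397 against 41.0 CPM, a log2 ratio of 3.28, and Gata1, its relative in the erythroid and eosinophil lines, at 56.0 against 13.1 CPM, a ratio of 2.13. Nfatc2, a calcium-dependent factor, had a ratio of 2.54 and Junb, an AP-1 subunit, one of 1.89. Stat5a, at -1.62, and Cebpa, at -1.19, were the 2 that were lower. Of 20 receptors and adaptors upstream of mast cells and basophils, 10 were higher and 1 lower. Il1rl1, the IL-33 receptor, was at 90.7 against 2.80 CPM (log2 5.03), Csf2rb2, the IL-3 specific beta chain of mice, at 251 against 34.2 CPM (2.88), and Il18r1 at a ratio of 2.24. Of 13 other cytokines 8 were higher and 1, Il12a, lower. Osm had a ratio of 5.24, Lif 4.70 and Il6 4.66, all of the IL-6 family, and Ccl9 3.81. Of 12 genes of IL-4 and IL-13 reception and signalling 4 were higher, with Il4ra at 37.3 against 9.18 CPM (2.07), Jak2 at 2.27 and Socs1, the STAT6-induced inhibitor, at 1.93. Of 7 genes that answer IL-4 or IL-13 in other cells 6 were higher, or 5 of 5 by the bound, with Alox15 at 4.48 and Cish at 1.71.

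The ratios of Osm, Hdc, Ccl6, Gata2 and Gata1 were smaller inside cluster 3. Within its cells alone, a comparison chosen after the data were seen, 66 Il13 positive cells were set against 408 negative ones. There 2-fold differences were found upward in 353 of 5248 genes (6.73%) and downward in 333 (6.35%). With so few positive cells, genes near 20 CPM rest on few counts. How many of these differences counting error alone would give was not tested. Osm had a log2 ratio of 3.26 there, Il4 2.20, Hdc 2.07, Akr1c18 1.97, Ccl6 1.90, Gata2 1.53 and Gata1 0.10. Cpa3, at -0.71, and Prg2, at -0.42, were lower in the Il13 positive cells of the cluster. Some levels followed the number of Il13 molecules. In cells with 1, 2 and at least 3 Il13 UMIs (38, 20 and 24 cells), Ccl6 was at 2494, 3555 and 4728 CPM and Osm at 121, 171 and 469 CPM, while Mpo was at 202, 10.9 and 0 CPM. The summed eosinophil markers went the other way from Ccl6, at 1111, 862 and 296 CPM, and Cpa3 had no such order, at 1034, 1550.1 and 883 CPM. All 24 cells of the last class were in cluster 3, against 30 of the 38 with 1 UMI.

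Il4 positive cells differed much less from the rest as a whole. With 906 positive and 4376 negative cells, 2-fold differences were found upward in 55 of 5344 genes (1.03%) and downward in 20 (0.374%). Il13 led the former, at 20.5 against 1.19 CPM (log2 4.09), then Ly6g at 3.19, Ccl6 at 3.03, Tnfrsf9 at 2.97, Cd200r4 at 2.95, Akr1c18 at 2.90, Avil at 2.5, Osm at 2.42, P2ry14 at 2.38 and F2r at 2.28. Akr1c18, a hydroxysteroid dehydrogenase, had 221 against 29.6 CPM. Among the lowest were S100a8 at -1.76, Elane at -1.67, Wfdc21 at -1.65 and Camp at -1.34, and 37.1% of the S100a8 counts of positive cells came from 1 cell. Of 13 mast cell and basophil markers 8 were higher and 0 lower (median 1.05), where 3.58% of 12221 genes were higher, 2.89% were lower and the median was -0.07. Gata1 had a ratio of 1.32, Gata2 1.23, Hdc 1.81 and Cpa3 1.00. Of 20 upstream receptors 5 were higher, with Il1rl1 at 2.73 and Csf2rb2 at 1.60, and of 13 other cytokines 6 were higher. Of 12 genes of IL-15 reception and signalling 1 was higher and 1 lower, the latter Il15ra at -1.71.

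The Il4 positive cells fell into unlike parts. Of the cells with 1, 2, 3 to 4 and at least 5 Il4 UMIs (720, 135, 56 and 18 cells), 142, 48, 35 and 16 were in cluster 3, that is 19.7%, 35.6%, 62.5% and 88.9%. Over the same classes Ccl6 stood at 266, 605, 1445 and 4549 CPM, Gata2 at 56.0, 98.9, 209 and 450 CPM, and Il13 at 3.15, 23.5, 58.5 and 284 CPM. The Ccl6 level of the last class is not set beside the 4525 CPM of Il13 positive cells, which was summed after thinning. Without cluster 3, a comparison also chosen after the data were seen, 4 of 5311 genes (0.0753%) were at least 2-fold higher in Il4 positive cells and 6 (0.113%) lower. There Ccl6 had a log2 ratio of 0.28, Ly6g -0.21 and Gata2 0.60, while Cpa3, at 0.99, and Gata1, at 1.02, kept nearly the ratio they had over all cells. Akr1c18 stood at 1.32. The Il13 level of the 688 Il4 positive cells outside cluster 3 was 0.222 CPM (0.0459 to 0.650), from 3 counts.

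**Figure D3:**
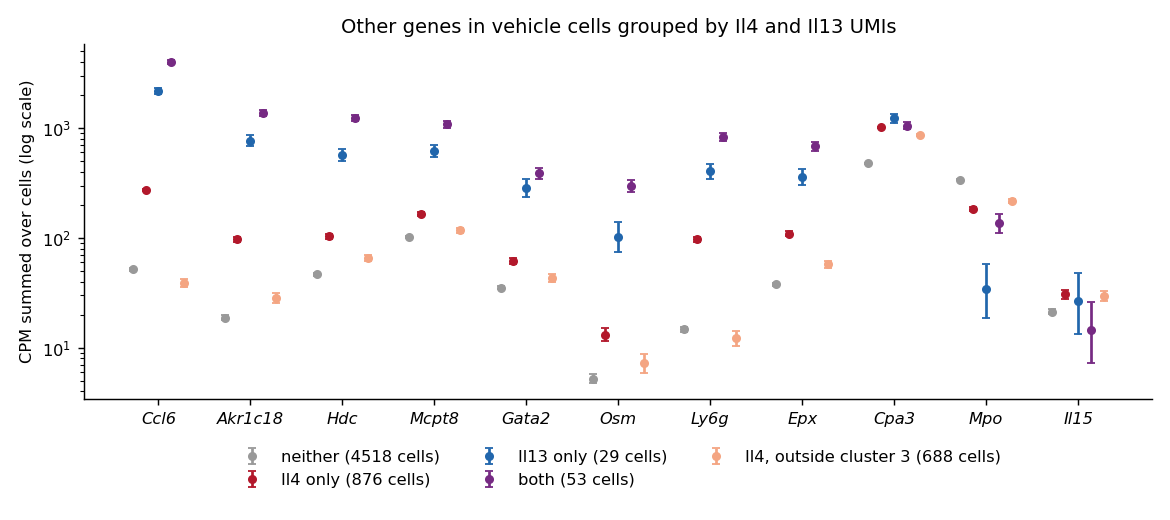
CPM (vertical axis, log scale, 95% Poisson intervals) of 11 genes in vehicle cells with neither cytokine, with Il4 alone, with Il13 alone and with both, and in the Il4 positive cells outside cluster 3, which overlap the groups with Il4. Ccl6 was at 51.8 CPM in cells with neither, 273 with Il4 alone, 2164 with Il13 alone and 4008 with both, and at 38.7 CPM in Il4 positive cells outside cluster 3.

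The overlap of Il4 and Il13 in single cells was counted directly. Of 929 Il4 positive vehicle cells 53 (5.71%, 4.30 to 7.40) also held Il13, against 29 of 4547 without Il4 (0.638%, 0.428 to 0.915). Read the other way, 53 of 82 Il13 positive cells held Il4 (64.6%, 53.3 to 74.9), against 16.2% of the other cells. After thinning to 5000 UMIs, 22 of 52 Il13 positive cells held Il4 (42.3%, 28.7 to 56.8), against 6.60% of the rest. Cells with both were in cluster 3 in 50 of 53 cases, and cells with Il13 alone in 23 of 29. Il4 positive cells had a median of 15818 UMIs and Il4 negative cells 16928, and Il13 positive cells 12777 against 16796, so positive cells were not the deeper ones. Median mitochondrial shares were 1.42% in Il13 positive and 1.99% in negative cells.

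Il15 went apart from Il13. Of 82 Il13 positive cells 13 held Il15 (15.9%, 8.72 to 25.6), against 30.1% of the others, and after thinning 1 of 52 (1.92%, 0.0487 to 10.3) against 11.9% (11.0 to 12.8). With Il4 it overlapped more: 331 of 929 Il4 positive cells held Il15 (35.6%, 32.5 to 38.8), against 28.8% (27.5 to 30.1). Only 7 vehicle cells held all 3 cytokines. In the retinoic acid library 0 of the 15 Il4 positive cells held Il15, which by the same rule of 3 counts allows a share of up to 20%.

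Il15 positive vehicle cells were close to Il15 negative ones. With 1624 and 3658 cells, a 2-fold difference was found upward in 1 of 5269 genes (0.019%) and downward in 10 (0.19%). The 1 gene, Ccl5, had a log2 ratio of 2.08, but 80.1% of its counts in positive cells were in a single cell, and it was found in 0.800% of positive against 1.31% of negative cells. Next came Cpa3, at 908.5 against 530.1 CPM (log2 0.78, 0.73 to 0.82), in 70.9% of positive and 52.4% of negative cells, and Kit, the receptor of the sort, at 0.72. Fnbp1l, Ces1d, B3gnt8, Milr1, Ctsw, Osbpl5 and Mettl7a1 followed at 0.51 to 0.54. Lowest were Ly6g at -2.88, S100a8 at -2.69, Ccl6 at -2.27, Camp at -2.04 and Cd177 at -1.90, and 1 cell gave 33.2% of the Camp counts of positive cells. Of 11 maturing neutrophil markers 10 were lower, where 1.81% of 12221 genes were lower and 1.16% higher. Without cluster 4 S100a8 was at -1.73 and Camp at -1.36, and Ly6g still at -2.80. Of 13 mast cell and basophil markers 0 were higher and 2 lower.

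Genes that serve IL-15 were compared in the same cells. Of 12 genes of IL-15 reception and signalling and 9 of its regulators, none was 2-fold higher or lower in Il15 positive cells, with medians of 0.00 and -0.08, and with 1.16% and 1.81% of all genes past these limits a count of 0 is near the share over all genes. Il15ra, which presents the cytokine, had a ratio of -0.12. Cpa3 was higher with more Il15 molecules, and cells with 1, 2 and at least 3 Il15 UMIs had 701, 947 and 1228 CPM of it, against 570 CPM over all vehicle cells. In these classes Ly6g was at 11.6, 3.99 and 3.72 CPM, against 35.6 CPM over all cells. Median depth was 16988, 17233 and 17514 UMIs over the same classes.

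**Figure D4:**
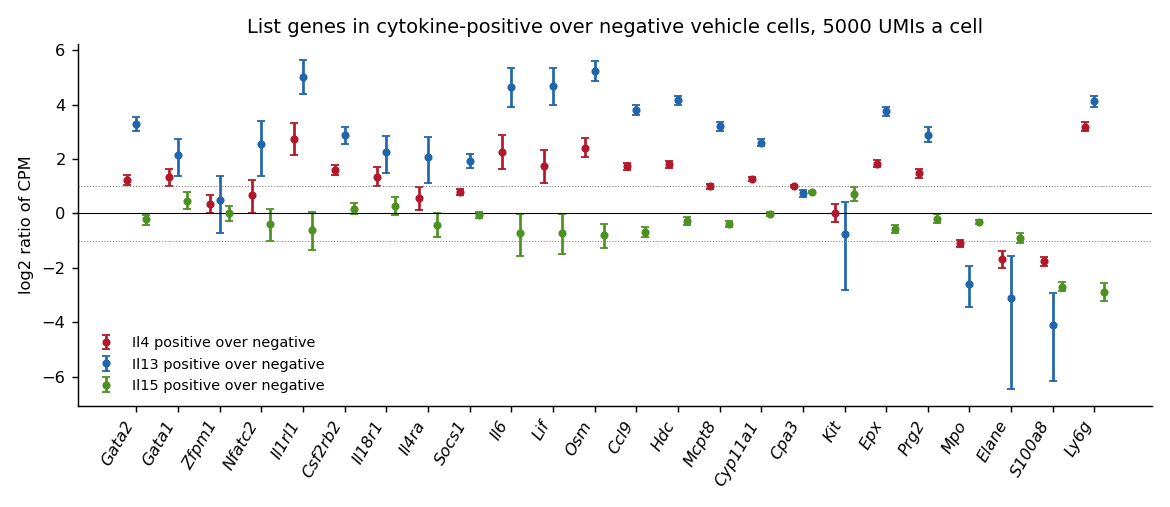
Log2 ratio of CPM (vertical axis, 95% counting intervals, dotted lines at 2-fold) in cytokine positive over negative vehicle cells at 5000 UMIs for 24 genes of the lists and markers (horizontal axis). Il13 ratios (blue) were above those of Il4 (red) for Gata2, Il1rl1, Osm and Hdc, and the Il15 ratios (green) stayed within 2-fold save for S100a8 and Ly6g.

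All 3 genes were highest in vehicle cells called G1. At 5000 UMIs Il4 was at 30.4 CPM in G1 (27.6 to 33.4), 9.09 in S and 5.42 in G2/M. Il13 was at 8.37 CPM (6.92 to 10.0) in G1, had 0 counts in S and was at 0.332 in G2/M. Il15 was at 37.4 CPM (34.2 to 40.7) in G1, 15.9 in S and 14.2 in G2/M. Of Il13 positive cells 85.3% were called G1 against 52.0% of negative cells, of Il4 positive cells 71.5% against 48.5%, and of Il15 positive cells 59.0% against 49.6%. The level of Mki67, a proliferation gene, was 3.09 CPM in cells with at least 3 Il13 UMIs and 139 CPM in cells with neither Il4 nor Il13, though it was also 6.96 CPM over the whole of cluster 3. In the retinoic acid library Il15 showed no such order, with 2.40, 2.75 and 2.52 CPM in G1, S and G2/M, intervals that overlap. Among vehicle G1 cells alone, chosen after the data were seen, 0 of 5080 genes (0%) were 2-fold higher in Il15 positive cells and 24 (0.472%) lower, with Cpa3 at 0.63, Kit at 0.70 and Ly6g at -3.48. The part of free RNA in these phase differences was not tested.

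**Figure D5:**
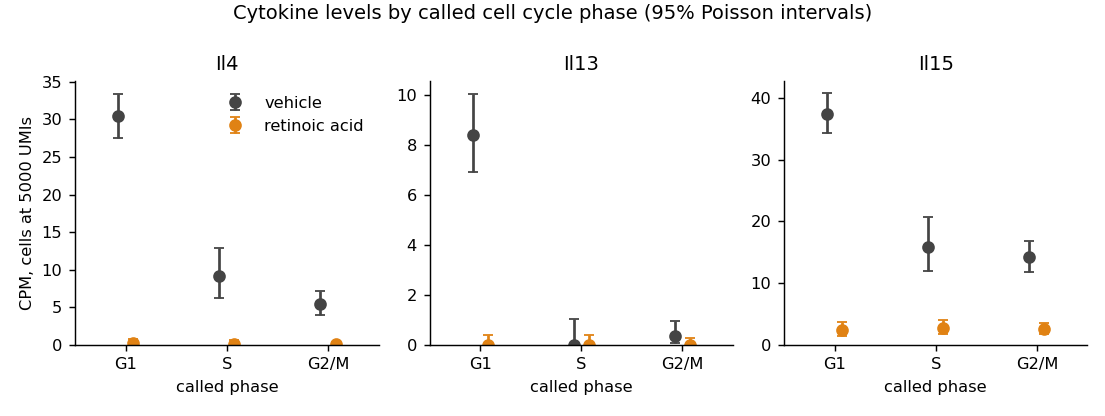
CPM of each cytokine gene (vertical axes, each from 0, 95% Poisson intervals) in cells at 5000 UMIs by called cell cycle phase (horizontal axis) for vehicle (grey) and retinoic acid (orange). Vehicle G1 cells stood at 30.4, 8.37 and 37.4 CPM for Il4, Il13 and Il15, above S and G2/M cells.

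The vehicle cells were also grouped by Cpa3 and Mpo. Cells with Cpa3 and no Mpo at 5000 UMIs had 28.3 CPM of Il4, 6.51 of Il13 and 36.7 of Il15. Cells with Mpo and no Cpa3 had 4.09, 0.314 and 11.9 CPM, and cells with both had 11.6, 0.385 and 28.9 CPM. Cells with neither had 12.4, 4.31 and 15.3 CPM. Among these classes Il15 was higher with Cpa3 than without it, with or without Mpo. Its intervals with Cpa3, 33.5 to 40.2 and 22.7 to 36.2 CPM, overlapped, while Il4 was lower where Mpo was present too. Il13 positive cells went another way: Cpa3 was higher in them, yet 15.9% held Il15, against 30.1% of the other cells.

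The genes whose levels most resembled each cytokine over 5282 vehicle cells were found by Pearson's r of log counts, given as a description, since cells share a library. For Il13 they were Akr1c18 at 0.39, Furin at 0.37, Ccl6 at 0.35, Hdc at 0.34 and Tgm1 at 0.30. For Il4 they were Ccl6 at 0.27, Cyp11a1 and Hdc at 0.24, Akr1c18 at 0.23 and Cdkn2a at 0.22. For Il15 the highest was Cpa3, at 0.17, followed by the ribosomal protein genes Rps24, Rpl39 and Rpl37, and in the retinoic acid library no gene passed 0.058. The values for Il15 are weak and name no partner.

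The few retinoic acid cells with Il4 or Il15 were looked at in the same way. Of the 22 Il4 counts, 9 were in the 715 maturing neutrophil-like cells (1.67 CPM, 0.764 to 3.17) and 7 in the 271 eosinophil-like cells (1.88 CPM, 0.756 to 3.88), and the other clusters had at most 0.337 CPM. With 15 principal components the order changed, with 14 counts in 334 eosinophil-like cells (2.99 CPM, 1.64 to 5.02) and 5 in 674 maturing neutrophil-like cells (1.00 CPM, 0.326 to 2.34). Among the 15 Il4 positive cells, 14 held S100a8 and Camp, as nearly all cells of that library did, and 3 held Epx. They carried 1457 Prg2 counts, all in 2 cells. Of the Il4 positive cells 20% held Epx, 13.3% Prg2 and 6.67%, that is 1 cell, Cpa3. The shares of Il4 negative cells were 1.98%, 2.27% and 0.112%. Mcpt8 went the other way, at 26.7% against 45.3%. Cd200r3 had 0 counts in Il4 positive and negative cells alike, so nothing is read from it. Il15 ran from 1.48 CPM in the maturing neutrophil-like cluster to 4.03 CPM (2.26 to 6.65) in the eosinophil-like cluster. With 230 Il15 positive cells against 6429 at 5000 UMIs, 2-fold differences were found upward in 6 of 5457 genes (0.11%) and downward in 11 (0.202%). The highest were D3Ertd751e at 1.56, Cd1d1 at 1.11, Tsc2 at 1.09, Sdc2 at 1.09, Rnf128 at 1.07 and Syne2 at 1.04, each with 23 to 54 counts in the positive cells. Without thinning 0 genes were 2-fold higher, so none of these 6 held, and with positivity read after thinning 131 were. The lowest were Cybb, Prg2, Ltf, Ccl6 and Clec4a2, with Ltf, the lactoferrin gene, at -2.87. No cluster of this library took the name mast cell and basophil-like.

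Receptors and partners of these cytokines were also compared between the libraries. Of 12 genes of IL-4 and IL-13 reception and signalling, retinoic acid had 1 at least 2-fold higher and 2 lower, where of 14555 genes with at least 10 counts 5.72% were higher and 15.1% lower (median -0.08). The counts of this list and of the IL-15 list below are near those shares. Il4ra was at 9.92 CPM under vehicle and 9.46 CPM under retinoic acid, a log2 ratio of -0.07, and Stat6 at 20.03 and 20.01 CPM. Il13ra1, the other chain of the receptor for IL-13, was at 0.928 and 2.84 CPM (1.61). Il2rg was at 83.1 and 45.4 CPM (-0.87), and Socs1 at 103 and 36.4 CPM (-1.50). Il13ra2, the decoy receptor, had 0 counts in both. Of 12 genes of IL-15 reception and signalling 1 was higher and 1 lower. Il15ra was the one that was higher, at 5.65 and 11.9 CPM (1.07), against the direction of its ligand, and Il2rb had 5 counts and 1 count. Of 9 IL-15 regulators 2 were lower, Nfkb1 at 467 and 116 CPM (-2.01) and Relb at 2.49 and 0.618 CPM, and 1 was higher, Nlrc5 at 0.636 and 2.39 CPM (1.90). Irf1, which binds the Il15 promoter in other cells, was at 4.03 and 6.99 CPM (0.80).

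Of 25 regulators of type 2 cytokine genes 5 (20%) were lower and 1 (4%) higher, near the shares over all genes of 15.1% and 5.72%. Gata2 was at 43.2 CPM under vehicle and 1.14 CPM under retinoic acid, a log2 ratio of -5.23 (-5.51 to -4.98). Gata1 was at 11.8 and 1.10 CPM (-3.42), and Zfpm1, which encodes the GATA partner FOG1, at 16.7 and 3.13 CPM (-2.41). Gata3, the factor of T helper cells, had 5 and 8 counts. Of 8 genes in the list of the type 2 cytokine locus, Il4 and Il13 included, 5 were lower and 0 higher. The other 3 that were lower were Csf2 at 21.2 and 7.30 CPM (-1.54), Sept8 at 156 and 20 counts (-3.08) and Shroom1 at 150 and 61 counts (-1.44). Rad50 was at 47.5 and 67.9 CPM (0.51) and Kif3a at 37.3 and 29.3 CPM (-0.35), and Il5 had 2 counts and 0. Of 18 other cytokines 8 were lower and 0 higher. Il6 had 244 counts and 0, a log2 bound of -6.50, Lif 327 counts and 2, and Osm was at 9.14 and 1.39 CPM (-2.71). Il1rl1 had 251 counts and 3, and Hdc was at 67.0 and 1.71 CPM (-5.29). Of 13 mast cell and basophil markers 8 were lower and 0 higher (median -5.23, or -4.15 with genes at 0 at their bound), with a summed level of 3315 CPM under vehicle and 1968 CPM under retinoic acid, of which Srgn, also a gene of neutrophils, made 2171 and 1811 CPM. Cpa3 was at 570 and 0.0999 CPM. All 6 eosinophil markers with at least 10 counts were lower, with sums of 126 and 34.8 CPM, and Fcer1a, Mcpt4, Tpsab1 and Tpsb2 had 0 counts in the vehicle library. The part that fewer such cells and less RNA per cell have in the cytokine sums was not tested.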

How the data were processed

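Polyadenylated RNA of sorted promyelocytes was measured with 10x Genomics 3′ v2 chemistry in 1 vehicle and 1 retinoic acid library at a target of 6000 cells each, per the labels' protocols. Each deposited matrix holds unnormalised UMI counts of genes in single cells, per the file headers. The submitters' processing notes name Cell Ranger 4.0.0 and the builds mm10 and GRCm38.p4, while the way cells were told from empty droplets is not given in the sources used here.

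Cells with at least 1000 UMIs, 500 genes and at most 10% mitochondrial UMIs were kept, which removed 310 vehicle and 276 retinoic acid barcodes. Scrublet called 1 and 7 doublets (0.0183% and 0.0980%), too few for a working caller, so none were removed. Counts were summed over cells, and log2 ratios had 0.5 counts added. Intervals are exact Poisson for sums, Clopper-Pearson for shares and exact binomial, conditional on the summed counts, for ratios. PCR copies were collapsed by UMI, and intervals cover counting error only. Cells were thinned at random to 5000 UMIs to compare positive cells (at least 1 UMI before thinning) with negative ones. Sets of at least 50 positive cells were compared. Levels in clusters and in groups of cells by their cytokine UMIs were summed over all UMIs of the kept cells. Ratios were counted past 2-fold among genes that reached 20 CPM in 1 or both sets, and lists among genes with at least 10 counts. Clusters came from Leiden clustering per library in scanpy 1.11.5 without the 3 genes (2000 variable genes, 30 components, 15 neighbours, resolution 0.5), named where at least 3 of 10 leading genes with at least 20 CPM marked 1 class. Phases were scored in scanpy. TMM factors came from edgeR 4.0.16 in R 4.3.3. The calculation was tested on simulated counts.

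Named genes were the 3 members, list genes, the 10 highest and 5 lowest ratios of each comparison and the 5 best correlated genes detected in at least 5% of cells. A gene that this rule names is not reported here. Members, lists and markers were chosen with earlier results of these data known. No test was made, because each group held 1 library. Alternatives covered cell filters, scaling, thinning, thresholds, clustering and, chosen after the data were seen, subsets of cells and bounds for genes at 0.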

Additional observations from a re-analysis of the deposited data

How the results depend on the processing

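Of 189 recomputed values, 127 stayed within the counting interval, or within 1.5 times for counts of genes, 62 moved and 0 reversed. No paired analysis was possible because a group consisted of 1 library. The library ratios of Il4, Il13 and Il15 moved under none of the cell filters nor under TMM scaling, which shifts every log2 ratio by 0.08. With equal weight for every cell the log2 ratio of Il4 was -5.45, and Il13, at 0 counts in 1 library, has no value there.

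Shares of cells followed the depth and the threshold. At 3000 UMIs the vehicle shares were 4.54% for Il4, 0.669% for Il13 and 7.44% for Il15, and the retinoic acid share was 0.621% for Il15. At 10000 UMIs they were 11.1% for Il4, 19.6% for Il15 and 2.21% for Il15 under retinoic acid. With at least 2 UMIs they were 1.02%, 0.341% and 1.36% in the vehicle, and 0% for Il4 and 0.0901% for Il15 under retinoic acid. Il13 was found with Il4 in 52.3% of Il13 positive cells at 2 UMIs of each and in 42.3% after thinning, and with Il15 in 2.27% and 1.92%. At 2 UMIs of each, 11.0% of Il4 positive cells held Il13.

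Counts of genes, higher then lower, moved with the minimum level, the rule for a positive cell and the cells compared. At 5 CPM they were 148 and 71 for Il4, 1232 and 1779 for Il13, 4 and 26 for Il15, and 177 and 94 for Il15 under retinoic acid. At 100 CPM they were 14 and 7, 168 and 188, 0 and 5, and 0 and 5. Il4 gave 169 and 136 at 2 UMIs and 113 and 98 with positivity read after thinning, which gave 131 and 57 for Il15 under retinoic acid. Without thinning 2 genes were lower with Il4 and 6 with Il15, and 0 were higher with Il15 under retinoic acid. Without the 5% highest doublet scores 36 were lower with Il4. Comparisons chosen after the data were seen gave 13 lower with Il4 without Il13 positive cells, 4 and 6 for Il4 without cluster 3, 353 and 333 for Il13 within cluster 3, 0 and 24 for Il15 in G1 cells, and 6 lower for Il15 without the maturing neutrophil-like cluster. Fewer than 50 cells held 2 UMIs of Il13 in the vehicle or of Il15 under retinoic acid, so neither was compared. With genes at 0 at their bound, also chosen after the data were seen, 1429 genes with at least 10 counts were lower with Il13 in place of 2147, 1 B cell marker was higher, and 1 gene of IL-15 reception and 0 of T cell receptor gamma were lower. With 15 principal components the eosinophil-like cluster held 63.6% of the Il4 counts under retinoic acid. At resolution 1.0 the highest cluster levels were 336 CPM for Il4 (25.5% of its counts), 198 CPM for Il13 (76.5%) and 43.5 CPM for Il15. Where a value moved without a change in cells, genes or depth by construction, the cause was not tested.

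Depth limits what single cells show: most Il4 and Il15 positive cells held 1 UMI, and the sparse Il15 of the retinoic acid library gave ratios from 23 to 54 counts.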
